A study of Mus musculus with 8 samples.

Results

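Transcripts of 9 genes of the integrated stress response and the unfolded protein response were followed in Kupffer cells, the macrophages that live in the liver's blood channels, from naive and from carbon tetrachloride-treated mice. The set was chosen as named genes of these pathways and holds Atf4, Ddit3, Trib3, Chac1, Asns, Psat1, Hspa5, Xbp1 and Herpud1, 9 genes out of 32903 genes to which transcripts of the files could be assigned. There were 8 bulk RNA libraries, 5 from untreated wild-type mice (naive 1 to 5) and 3 from wild-type mice given carbon tetrachloride (CCl4) in corn oil for 8 weeks (0.75 mL/kg per dose, with 3 doses in each week), a schedule that scars the liver. The CCl4 libraries are numbered 1, 2-4 and 3 in the labels, which do not say whether 2-4 was a pool, and nothing states that the naive mice received corn oil. The labels also do not say that each library came from its own animal, so the p-values rest on differences among libraries that may be technical replicates.

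Cells read stress through a few kinases that phosphorylate the translation factor eIF2alpha, and the messages that are then favoured include the one for the transcription factor ATF4. ATF4 and its partner CHOP, the product of Ddit3, drive genes of amino acid synthesis and transport and genes that feed back on the response. In parallel, misfolded protein in the endoplasmic reticulum (ER) releases the sensors PERK, IRE1 and ATF6 from the chaperone BiP, the product of Hspa5. IRE1 cuts a short stretch from the Xbp1 message, and ATF6 and spliced XBP1 raise chaperones and the machinery that removes misfolded proteins. Macrophages carry a large secretory and lysosomal load and use these pathways in infection and after engulfing dying cells.

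Levels are in TPM, a length-corrected share of all transcripts that was scaled to a fixed total (999999 to 1000001 in each library). Read depth cannot be recovered from TPM and is unknown here. Per library, 14059 to 15063 genes had 1 TPM or more. The naive 5 library stood apart from naive 1 to 4, with which it correlated at 0.943 to 0.951 across genes where they correlated at 0.968 to 0.981 among themselves. It also lay nearer to the CCl4 libraries, at 0.878 to 0.888 against 0.813 to 0.846 for the other naive libraries. Markers of the labelled cell type were detected in both groups but at different levels. Of 14 Kupffer cell markers, 13 were lower after CCl4. The summed level of the 14 was 4298 to 7981 TPM in the naive and 902 to 1074 TPM in the CCl4 libraries. The exception was Id3, which is not particular to Kupffer cells, and the other 13, taken without it after its values were seen, summed to 3753 to 7402 TPM and 446 to 546 TPM. All 13 markers of sinusoidal endothelium, the neighbouring vessel lining, were lower too, with sums of 6977 to 12972 TPM and 261 to 694 TPM. Monocyte markers summed to 149 to 260.3 TPM in the naive and 705 to 1042 TPM in the CCl4 libraries. In bulk RNA, fewer cells of a type and less RNA per cell cannot be told apart, and the part of these shifts in the results that follow was not tested.

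In limma on log2(TPM + 1), with Benjamini-Hochberg adjustment over 15629 genes and a threshold of 0.05, Psat1, Hspa5 and Herpud1 rose after CCl4, Asns, Trib3 and Chac1 fell, and Atf4, Ddit3 and Xbp1 did not pass. The same test called 37.8% of all tested genes, 15.3% higher and 22.5% lower, so that calls were common in these libraries. The median difference (CCl4 minus naive, log2) was -0.17 over the 9 genes and -0.06 over all tested genes. Naive and CCl4 ranges were fully apart for 4 of the 9, Asns, Trib3, Chac1 and Psat1, and for 36.9% of all tested genes. Asns, Trib3 and Chac1 entered the test through their naive values alone, which favours such a separation, so it is not read as a result. The same test counted 4011 genes higher and 3086 lower after quantile normalization, in place of 2393 and 3513, and the median of all genes then moved from -0.06 to 0.11.

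**Figure D1:**
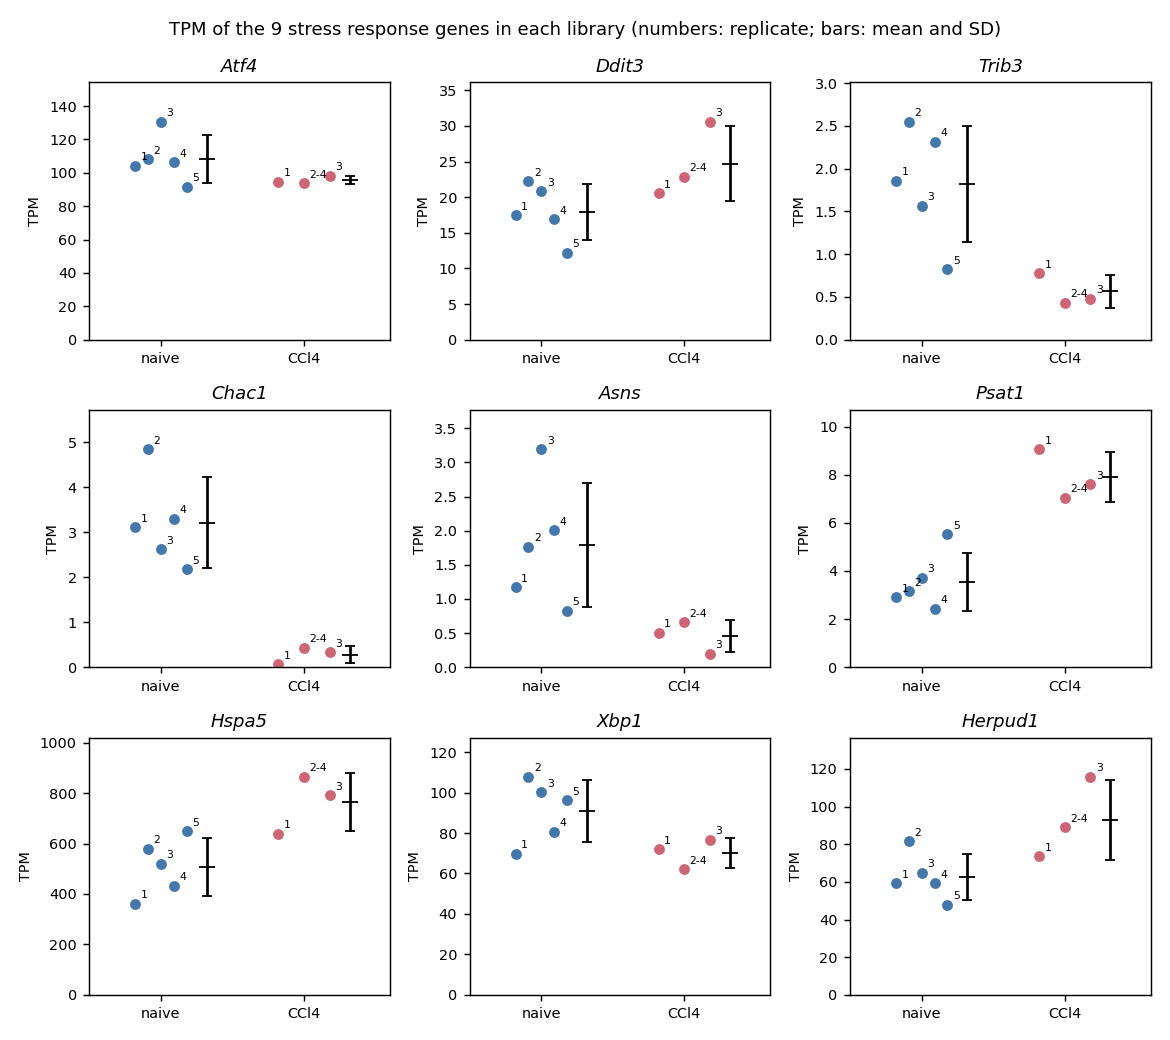
Level of each of the 9 genes in each library, in TPM on axes that start at 0, with 1 numbered point per library and the group mean with its SD to the right of the points. The 3 CCl4 points lie below all 5 naive points for Asns, Trib3 and Chac1 and above them for Psat1, and the groups overlap for the other 5 genes.

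Atf4 encodes the transcription factor at the centre of the integrated stress response. Its level in naive 1 to 5 was 104, 108, 131, 106 and 91.6 TPM, and in CCl4 1, 2-4 and 3 it was 94.7, 93.6 and 98.3 TPM. The CCl4 libraries lay close together inside the naive range. The means were 108 ± 14.1 TPM (SD, n = 5) and 95.5 ± 2.46 TPM (SD, n = 3). The log2 difference was -0.17 (SE 0.135, 95% interval -0.47 to 0.13, adjusted p = 0.356), and it passed in none of the alternative settings. Because ATF4 is controlled largely through translation of its message, the RNA level is not a measure of the protein.

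Ddit3 encodes CHOP, a transcription factor linked to cell death under lasting ER stress. The naive libraries held 17.5, 22.2, 20.9, 16.9 and 12.2 TPM and the CCl4 libraries 20.6, 22.9 and 30.6 TPM. CCl4 1 lay below naive 2 and naive 3, so the groups overlapped, while CCl4 3 was the highest of all. The means of 17.9 ± 3.90 and 24.7 ± 5.26 TPM (SD) differed by 0.45 (log2, SE 0.205, 95% interval -0.01 to 0.90, adjusted p = 0.113). A predicted RefSeq transcript held from 0.205% to 78.8% of the Ddit3 level, depending on the library. With predicted transcripts left out the difference was -0.10 with a larger SE of 0.565 (adjusted p = 0.913), so its direction was not determined there. With quantile normalization the difference was 0.58 and passed (adjusted p = 0.0280).

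Trib3 and Chac1 are ATF4 and CHOP targets that feed back on stressed cells. Trib3 encodes a pseudokinase that restrains ATF4 and AKT, and Chac1 an enzyme that degrades glutathione. Chac1 was at 3.11, 4.84, 2.62, 3.30 and 2.18 TPM in naive 1 to 5 and at 0.0726, 0.430 and 0.335 TPM in the CCl4 libraries. The lowest naive library was well above the highest CCl4 library. Its mean fell from 3.21 ± 1.01 to 0.279 ± 0.185 TPM (SD), the naive mean being 11.5 times the CCl4 mean. The log2 difference of -1.70 (SE 0.221, 95% interval -2.19 to -1.21, adjusted p = 0.000151) was the largest in size among the 9 genes.

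Trib3 stood at 1.86, 2.55, 1.57, 2.31 and 0.827 TPM in the naive and at 0.780, 0.430 and 0.480 TPM in the CCl4 libraries. The groups did not overlap, but naive 5 and CCl4 1 nearly met. The means were 1.82 ± 0.676 and 0.563 ± 0.189 TPM (SD), a ratio of 3.24, and the log2 difference was -0.82 (SE 0.233, adjusted p = 0.0173). Without CCl4 2-4 the adjusted p was 0.0587 and without CCl4 3 it was 0.0646.

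Asns makes asparagine from aspartate and glutamine and is a classic ATF4 target. Its naive values were 1.17, 1.77, 3.19, 2.01 and 0.827 TPM, and its CCl4 values 0.506, 0.663 and 0.196 TPM. Every CCl4 library was below every naive library. The mean was 1.79 ± 0.912 TPM in the naive and 0.455 ± 0.238 TPM in the CCl4 group (SD), 3.94 times lower. The log2 difference was -0.90 (SE 0.267, adjusted p = 0.0222), with adjusted p = 0.0994 without CCl4 3 and 0.0599 with quantile normalization. Its curated RefSeq transcript held 7.26% to 60.2% of the naive and 7.72% to 10.9% of the CCl4 level, the rest being in predicted transcripts. That transcript alone was at 0.0701 to 1.92 TPM in the naive and 0.0213 to 0.0550 TPM in the CCl4 libraries, a ratio of means of 14.3, and was too low to be tested. Among the naive libraries Asns was highest in naive 3 and lowest in naive 5, as was the endothelial marker Clec4g, at 3090 and 1557 TPM. Naive 2 and naive 4 were in opposite order for the 2 genes. In the CCl4 libraries Clec4g was at 49.4 to 133 TPM. Both genes were highest there in CCl4 2-4, but Asns was lowest in CCl4 3 and Clec4g in CCl4 1. Whether the endothelial share has a part in the Asns difference was not tested.

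Asns, Trib3 and Chac1 all had under 1 TPM in every CCl4 library and entered the test through their naive values. Of the 787 genes that entered in that way, 582 were called lower, which is 74.0%, so the 3 falls are given as values and their count is not read as support for a direction. Their log2 differences also depend on the constant added before the logarithm. With 0.1 in place of 1, they were -1.74 for Asns, -1.48 for Trib3 and -3.23 for Chac1. With 5 they were -0.31, -0.29 and -0.63, and all of these passed the threshold. At a filter of 5 TPM the 3 genes were not tested.

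Psat1 encodes a transaminase of serine synthesis and moved the other way from Asns. It was at 2.91, 3.17, 3.72, 2.44 and 5.52 TPM in the naive and at 9.06, 7.04 and 7.61 TPM in the CCl4 libraries. Naive 5 was the highest naive library and still below all 3 CCl4 libraries. The mean rose from 3.55 ± 1.19 to 7.91 ± 1.04 TPM (SD), 2.23 times higher. The log2 difference was 0.998 (SE 0.218, 95% interval 0.52 to 1.48, adjusted p = 0.00427), past the threshold in each alternative run and with each library left out. The enzymes before and after it in the serine pathway did not pass, with log2 differences of -0.25 for Phgdh (adjusted p = 0.423) and 0.16 for Psph (adjusted p = 0.585).

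ATF4 and its dimer partners bind a C/EBP-ATF response element, and the short stretches around it are shown because it is the known route from ATF4 to its target genes. The letters TGATGNAA were searched on both strands of RefSeq promoter windows (GRCm38.p6) from 250 bases before to 50 bases after the gene start. They occurred in 4 of the 9 genes, Asns, Chac1, Herpud1 and Trib3, and in 3.97% of all 32851 windows. Capitals mark the fixed letters of the match, which reads on the opposite strand in Chac1 and Herpud1.
Asns, chr6:7693210-7693247, minus strand: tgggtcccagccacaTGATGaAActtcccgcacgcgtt
Chac1, chr2:119351034-119351071, plus strand: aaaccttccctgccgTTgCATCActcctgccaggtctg
Herpud1, chr8:94386302-94386339, plus strand: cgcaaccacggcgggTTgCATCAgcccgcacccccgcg
The match ended 16 bases before the start in Asns, 186 bases before it in Chac1 and 105 bases before it in Herpud1, while that of Trib3 lay downstream of the start. Psat1 held no match in either of its windows.

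Hspa5 encodes BiP, the main HSP70 chaperone of the ER lumen, and was the most abundant of the 9 messages. The naive libraries held 361, 579, 520.5, 432 and 648 TPM and the CCl4 libraries 639, 865 and 793 TPM. Naive 5 was above CCl4 1, so the groups overlapped at that edge. The means were 508 ± 114 and 765 ± 115 TPM (SD), 1.51 times higher after CCl4. The log2 difference of 0.61 (SE 0.205, 95% interval 0.15 to 1.06, adjusted p = 0.0382) passed by a narrow margin. It did not pass without naive 1 (adjusted p = 0.0761), naive 3 (0.0587), naive 4 (0.0825), CCl4 2-4 (0.125) or CCl4 3 (0.116), nor after quantile normalization (0.129), after rescaling to protein-coding genes (0.0603) or without the filter on low genes (0.0804). Hspa8, the cytosolic relative of BiP, had a log2 difference of 0.58 (adjusted p = 0.0618).

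Herpud1 encodes a membrane protein of ER-associated degradation. It was at 59.4, 81.7, 64.9, 59.2 and 47.9 TPM in the naive and at 73.5, 89.2 and 116 TPM in the CCl4 libraries. Naive 2 exceeded CCl4 1, and the other 4 naive libraries were below all 3 CCl4 libraries. The means of 62.6 ± 12.3 and 92.9 ± 21.4 TPM (SD) gave a ratio of 1.48 and a log2 difference of 0.56 (SE 0.193, 95% interval 0.13 to 0.98, adjusted p = 0.0422). That call was lost without naive 1 (adjusted p = 0.0779), naive 3 (0.0609), naive 4 (0.0805), naive 5 (0.0619), CCl4 2-4 (0.0860) or CCl4 3 (0.189). It was also lost without the filter (0.0763), after rescaling to protein-coding genes (0.0545), with curated transcripts only (0.0547) and without the intensity trend (0.0557).

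The Hspa5 promoter is shown because it alone among the 10 windows of the 9 genes holds the full ER stress response element, which ATF6 binds with NF-Y. Its letters, CCAAT and CCACG with 9 free bases between them, were found on either strand in 39 of the 32851 windows, which is 0.119%. The unfolded protein response element, TGACGTG, was found in 661 windows, or 2.01%, and among the 9 genes in Hspa5 only. Both are in capitals in this stretch of 141 bases, and no 2 matches overlapped.
Hspa5, chr2:34771918-34772058, plus strand: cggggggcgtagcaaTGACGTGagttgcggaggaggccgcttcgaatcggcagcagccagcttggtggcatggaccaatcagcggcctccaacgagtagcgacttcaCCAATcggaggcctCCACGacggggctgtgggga
The ER stress response element began 65 bases before the start and the other match 157 bases before it. The remaining genes may hold such elements in other spellings or outside the window.

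**Figure D2:**
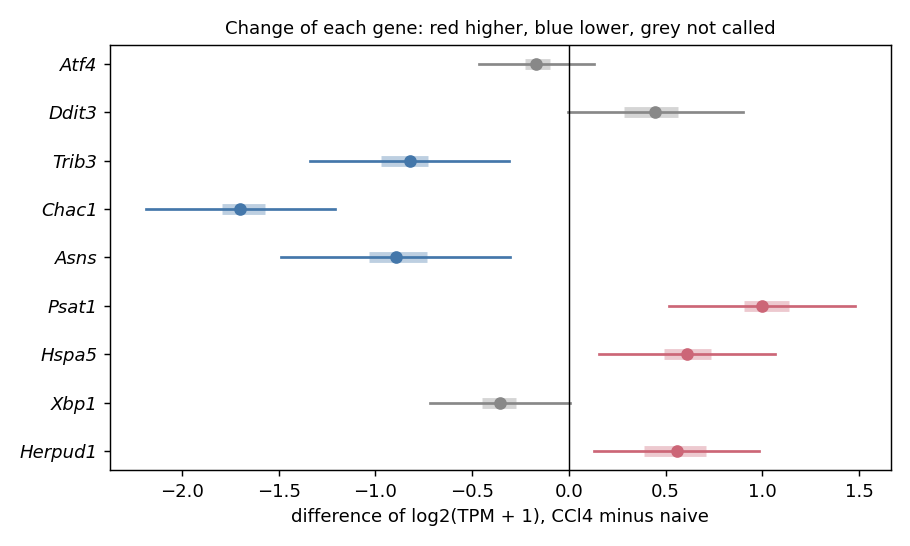
Log2 difference (CCl4 minus naive) of each of the 9 genes on the log2(TPM + 1) scale, with the 95% interval as a thin line and the range over leaving out each library as a thick band. Chac1 is lowest at -1.70 and Psat1 highest at 0.998, and the intervals of Atf4, Ddit3 and Xbp1 include 0.

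Xbp1 encodes the transcription factor that IRE1 activates by splicing. Its summed level was 69.7, 108, 100.2, 80.6 and 96.2 TPM in the naive and 71.9, 62.1 and 76.6 TPM in the CCl4 libraries. Naive 1 lay below CCl4 1 and CCl4 3, and the other naive libraries were above all CCl4 libraries. The means were 90.9 ± 15.5 and 70.2 ± 7.41 TPM (SD). The log2 difference was -0.36 (SE 0.163, 95% interval -0.72 to 0.00, adjusted p = 0.112), and it passed without naive 1 (-0.45, adjusted p = 0.0496) and after rescaling to protein-coding genes (-0.41, adjusted p = 0.0360).

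The stretch that IRE1 removes is shown because it is all that distinguishes the spliced message from the unspliced one. It lies in exon 4 on the plus strand of GRCm38, at chr11:5524279-5524304, and was located as the 26 bases between a pair of CNGCNGN loop sequences whose removal keeps the start codon and lengthens the reading frame from 267 to 371 residues. In these 66 bases the capitals mark it.
Xbp1, chr11:5524259-5524324: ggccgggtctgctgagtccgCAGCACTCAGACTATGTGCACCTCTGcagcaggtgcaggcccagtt

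The files list 2 Xbp1 records, and the one taken as the spliced form is known as such from RefSeq, which the tables used here do not state. Its TPM was 2.59, 19.0, 17.6, 11.7 and 9.10 in the naive and 7.49, 16.7 and 15.5 in the CCl4 libraries. It made up 3.71%, 17.6%, 17.5%, 14.5% and 9.45% of the Xbp1 level in naive 1 to 5 and 10.4%, 27.0% and 20.2% in CCl4 1, 2-4 and 3. The naive 1 library was lowest and CCl4 2-4 highest, and CCl4 1 lay inside the naive range. The mean share was 12.6% ± 5.97 in the naive and 19.2% ± 8.31 in the CCl4 group (SD). The difference of 6.63 percentage points had p = 0.25 in an exact two-sided permutation test over 56 assignments, whose smallest possible p is 0.0179. Leaving out 1 library at a time gave differences of 2.76 points without CCl4 2-4, 11.02 points without CCl4 1, 4.42 points without naive 1 and values between these for the others. The split of so similar a pair of records is an estimate of the quantification program, and its error per library is unknown.

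**Figure D3:**
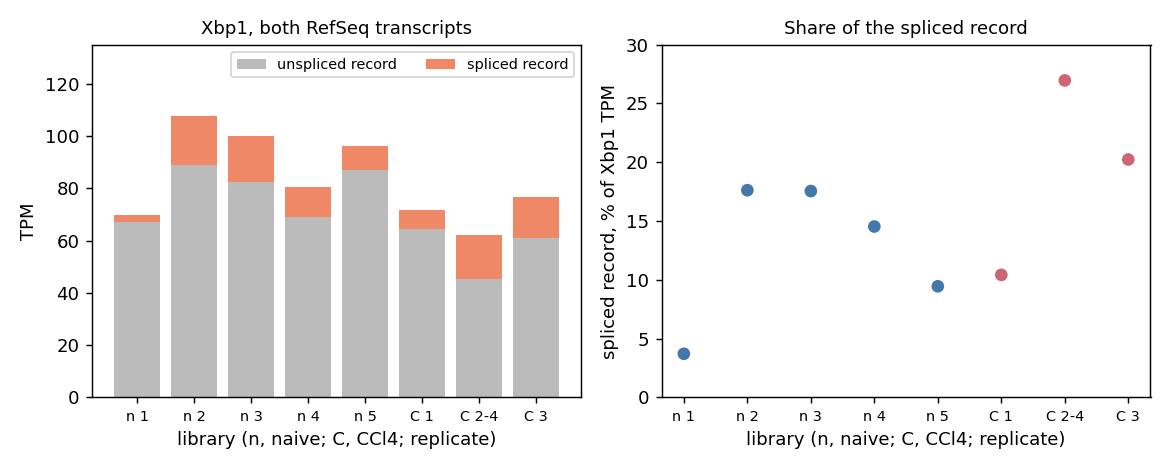
Xbp1 in each library by RefSeq record, in TPM, as stacked bars on the left, and the share of the record taken as spliced in percent on the right. The share runs from 3.71% to 17.6% in the naive and from 10.4% to 27.0% in the CCl4 libraries, and the groups overlap.

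TPM are corrected for transcript length, and by them the 9 genes could be ordered by mean level. In both groups Hspa5 lay above all others without overlap, then came Atf4, and Ddit3 was the fifth and apart. Between Atf4 and Ddit3, Xbp1 was above Herpud1 in the naive libraries and Herpud1 above Xbp1 in the CCl4 libraries, and in both groups these neighbours overlapped. In the naive libraries Psat1, Chac1, Trib3 and Asns followed, each overlapping with the next. In the CCl4 libraries Psat1 stood apart above Trib3, Asns and Chac1, which overlapped.

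The other genes of the pathways were read from lists of their known members. Of 132 tested genes beside the 9, 19 were higher, 19 lower and 94 not called, with a median log2 difference of -0.08. That stands beside the 37.8% called among all tested genes, a comparison given without a test.

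Among 20 sensors and regulators of eIF2alpha, 2 were higher and 1 was lower. The kinase genes Eif2ak3, which encodes PERK, and Ern1, which encodes IRE1, did not pass, with log2 differences of 0.04 (95% interval -0.35 to 0.42) and 0.22 (95% interval -0.06 to 0.49). Atf6 rose from 23.5 ± 2.79 to 38.9 ± 6.42 TPM (SD; log2 0.70, adjusted p = 0.00421), though with curated transcripts only the difference was 0.996 with a larger SE of 0.747 (adjusted p = 0.348). Dnajc3, which encodes a co-chaperone known to inhibit PERK, fell from 57.2 ± 8.62 to 32.6 ± 1.74 TPM (log2 -0.78, adjusted p = 0.00173). Ppp1r15a, which encodes the phosphatase subunit GADD34 that reverses eIF2alpha phosphorylation, went from 111 ± 22.8 to 199 ± 61.9 TPM (log2 0.81, adjusted p = 0.0170). The adjusted p for Ppp1r15a was 0.0789 without CCl4 2-4 and 0.0506 without CCl4 3. Eif2s2, an eIF2 subunit, had a log2 difference of -0.30 (adjusted p = 0.122).

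Among the transcription factors and feedback genes of the integrated stress response, 6 of 14 tested were higher and 3 lower. The median log2 difference of the list was 0.42. Of all tested genes, 15.3% were higher and 22.5% lower. The lower genes of the list were Trib3, Chac1 and Atf5, the last with adjusted p = 0.0530 without CCl4 3. Trib3 and Chac1 entered the test through their naive values alone, so their calls are not read as support for a direction. Among the higher genes of the list, Ppp1r15a was also counted among the regulators of eIF2alpha. Nfe2l2 (log2 0.40, adjusted p = 0.0470) kept its call in 2 of 8 runs with a library left out. Atf3, an early-response factor, rose from 60.6 ± 10.5 to 448 ± 152 TPM (SD; log2 2.82, SE 0.228). Gdf15, a secreted stress cytokine, rose from 3.13 ± 0.660 to 22.02 ± 8.83 TPM (log2 2.41, SE 0.256). Nupr1, a chromatin-associated stress protein, rose from 6.83 ± 0.716 to 21.5 ± 2.62 TPM (log2 1.52, SE 0.151). Ddit4, an inhibitor of mTORC1 signalling, rose from 34.4 ± 9.75 to 90.0 ± 31.3 TPM (log2 1.34, SE 0.283). Atf3 is also known to respond to tissue digestion, and of 16 genes of the dissociation response, Atf3 among them, 11 were higher and 1 lower, their sum being 3179 to 4512 TPM in the naive and 5883 to 8494 TPM in the CCl4 libraries. The part of dissociation in these differences was not tested.

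Amino acid synthesis and transport went both ways, with 3 of 17 tested genes higher, 5 lower and a median log2 difference of 0.02. The higher genes were Psat1, Slc1a5 and Mthfd2 and the lower ones Asns, Cth, Cbs, Gpt2 and Slc7a5. Of these, Asns had entered the test through its naive values alone. The call of Cth held in 1 of 8 runs with a library left out: its adjusted p was 0.0694, 0.0862, 0.0800 and 0.0815 without naive 1 to 4, 0.0892 without CCl4 1, 0.0614 without CCl4 2-4 and 0.138 without CCl4 3. Naive 5 had 1.29 TPM of Cth, below every CCl4 library. Slc1a5, a carrier of glutamine, rose from 22.2 ± 7.18 to 62.9 ± 9.45 TPM (SD; log2 1.50, SE 0.223). Mthfd2, a mitochondrial folate enzyme, rose from 6.38 ± 5.29 to 18.1 ± 5.87 TPM (log2 1.55, adjusted p = 0.0123), with adjusted p = 0.0577 without CCl4 2-4. Naive 5 held 15.8 TPM of Mthfd2, above CCl4 1 and CCl4 3, and the other naive libraries 2.98 to 4.72 TPM. Without naive 5 its log2 difference was 1.90. Cbs, which joins homocysteine to serine, fell from 15.1 ± 6.29 to 3.51 ± 1.86 TPM (log2 -1.82, SE 0.373). Slc7a5, a carrier of large neutral amino acids, fell from 25.2 ± 3.87 to 15.9 ± 4.89 TPM (log2 -0.66, adjusted p = 0.0260). Its call was lost without naive 2 (adjusted p = 0.0578), naive 3 (0.0557), CCl4 1 (0.111) or CCl4 3 (0.0613). It was also lost without the filter on low genes (0.0512) and after quantile normalization (0.0523).

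Cytosolic aminoacyl-tRNA synthetases, which charge tRNAs and are common ATF4 targets, were mostly uncalled, with 3 of 20 higher and 2 lower and a median of -0.01. Qars rose from 30.9 ± 3.73 to 52.1 ± 6.23 TPM (SD; log2 0.74), and Wars, which interferon also induces, fell from 57.9 ± 8.63 to 26.4 ± 4.92 TPM (log2 -1.11). Nars had a log2 difference of 0.46 (adjusted p = 0.0395) and Aars one of -0.43 (adjusted p = 0.0411). Leaving out naive 1, naive 3, naive 4, CCl4 1 or CCl4 2-4 ended the call of Nars (adjusted p = 0.0870, 0.0612, 0.0900, 0.0978 and 0.148). For Aars this held for naive 2 to 5, CCl4 1 and CCl4 3 (adjusted p = 0.0813, 0.0857, 0.0560, 0.0536, 0.0509 and 0.173). The other higher gene, Vars, had a log2 difference of 0.43 (adjusted p = 0.0428) and kept its call in 1 of 8 such runs. With all libraries, Nars also lost its call without the filter on low genes (adjusted p = 0.0560) and without the intensity trend (0.0568). Aars lost its call with curated transcripts only (adjusted p = 0.149), with version-matched transcripts only (0.0768) and without the intensity trend (0.0557).

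Most ER chaperones other than Hspa5 did not pass the test. Of 21 tested folding genes 2 were higher, Hspa5 and Ero1b, and 3 were lower, Pdia5, Dnajc3 and Dnajc10, with a median of -0.16. Hsp90b1, the ER form of HSP90, was at 404 ± 91.2 and 312 ± 18.6 TPM (SD; log2 -0.34, 95% interval -0.75 to 0.07, adjusted p = 0.176). Calr, a lectin chaperone, had a log2 difference of -0.17 (95% interval -0.60 to 0.27), and Hyou1, an exchange factor for BiP, one of 0.00 (95% interval -0.46 to 0.45). Ero1b, an oxidase of disulfide formation, rose from 15.1 ± 3.16 to 43.2 ± 5.44 TPM (log2 1.47). Pdia5, a disulfide isomerase, fell from 18.9 ± 2.65 to 5.34 ± 0.591 TPM (log2 -1.64), and Dnajc10, an ER reductase, from 33.7 to 14.99 TPM (log2 -1.12).

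In ER-associated degradation, 2 of 19 tested genes were higher and 0 lower, with a median of 0.03. Beside Herpud1 this was Edem1, which sorts misfolded glycoproteins for removal and rose from 31.3 ± 7.03 to 67.7 ± 2.31 TPM (SD; log2 1.11, SE 0.176, adjusted p = 0.00057). Edem3 and Ube2j1 had log2 differences of -0.35 and 0.34 and did not pass. Derl3, also a plasma cell marker, was listed at 0 in all 5 naive libraries and at 2.64, 0.421 and 0.591 TPM in CCl4 1, 2-4 and 3, and was not tested.

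Genes of translocation into the ER and export from it had 1 of 21 higher and 7 lower, with a median of -0.28. Of the lower genes, Sec23b kept its call in 3 of 8 runs with a library left out and Srpr in 4 of 8. Sec62 (adjusted p = 0.0693) and Sec31a (0.101) lost theirs without CCl4 3. Kdelr2, a receptor that returns ER proteins, fell from 111 ± 22.4 to 32.1 ± 7.80 TPM (SD; log2 -1.76, SE 0.208). Sec24d, of the COPII coat, and Sec63, of the translocon, had log2 differences of -1.02 and -0.76 and were called. Sec11c, a signal peptidase subunit, rose from 51.9 to 91.4 TPM (log2 0.80).

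Of 10 genes tied to cell death downstream of these pathways, 4 were higher and 2 lower, with a median of 0.34. Among all tested genes 15.3% were higher and 22.5% lower, a comparison given without a test. Pmaip1, which encodes the BH3-only protein NOXA, rose from 20.1 ± 6.85 to 91.9 ± 25.0 TPM (SD; log2 2.15). Map3k5, the kinase ASK1, rose from 11.6 to 29.5 TPM (log2 1.28), and Bcl2l11, which encodes BIM, from 20.1 to 34.2 TPM (log2 0.74). With curated transcripts only Bcl2l11 did not pass (log2 0.60, adjusted p = 0.0911). Txnip, an inhibitor of thioredoxin, fell from 599 ± 178 to 226 ± 32.5 TPM (log2 -1.35).

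**Figure D4:**
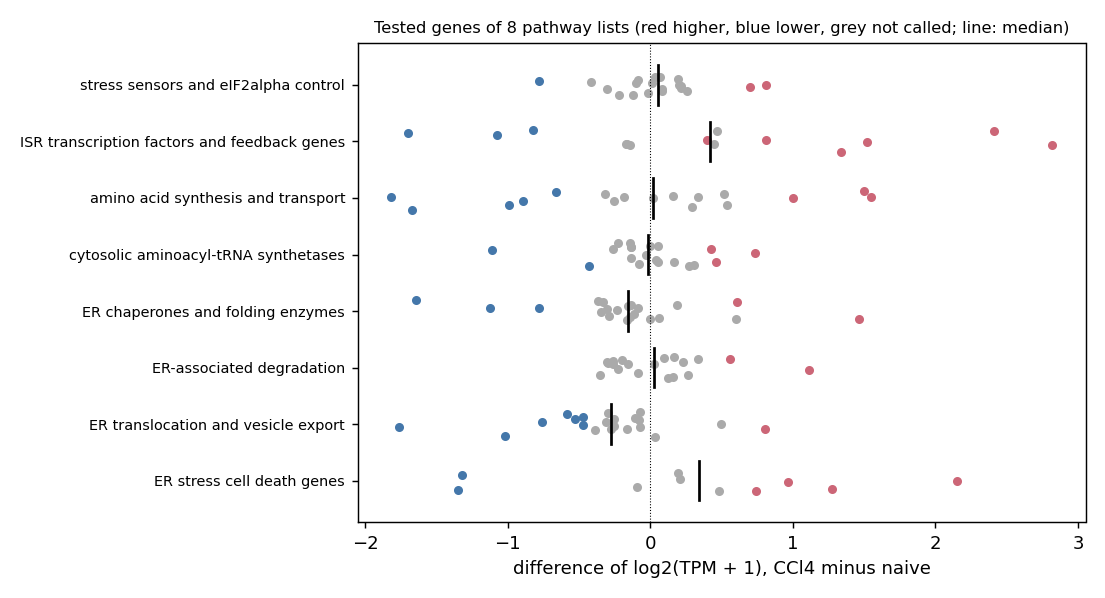
Log2 difference (CCl4 minus naive) of every tested gene in each pathway list, with called and uncalled genes as separate marks and the list median as a line. The medians run from -0.28 for translocation and export to 0.42 for the factors and feedback genes of the integrated stress response.

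Genes with the most similar profile over the 8 libraries were found by the root mean square difference of centred log2(TPM + 1), among 7938 genes with a mean of at least 10 TPM. These profiles hold the group difference, so a similar difference in the nearest genes follows from the choice. The nearest to Atf4 were Dxo (0.0627), Fam160b1 (0.0658) and Stx18 (0.0691). The nearest to Ddit3 were Chordc1 (0.136), Zfand2a (0.138) and Pik3r6 (0.146). Hspa5 was nearest to Hspd1 (0.0741), the mitochondrial chaperone HSP60, then Batf (0.110). Xbp1 was nearest to Pdia4 (0.105), an ER disulfide isomerase, then Map3k20 (0.111) and Hivep1 (0.112).

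Other cell types that could add these messages were followed by their markers. Over all 8 libraries the most abundant Kupffer cell markers were Clec4f and Cd5l, Clec4f being at 1397 ± 416 and 77.7 ± 11.05 TPM (SD), and in the CCl4 libraries Id3 led with 515 TPM on average. Here and in the other lists the leading markers are those of highest mean over all 8 libraries. They were Clec4g and Aqp1 for endothelium. Monocyte markers, 4 of 8 higher and 0 lower, were led by Ccr2 and S100a4, although in the naive libraries Plac8 was the most abundant at 86.6 TPM on average. B and plasma cells, whose secretory load makes Hspa5, Herpud1 and Xbp1 abundant, had 2 of 10 markers higher and 0 lower, with sums of 127 to 177 TPM in the naive and 104 to 202 TPM in the CCl4 libraries, led by Cd79b and Cd79a. Of their markers Jchain had a log2 difference of 1.06 (adjusted p = 0.0478), while the median over the 10 was -0.29. Cd79b and Cd79a had log2 differences of -0.20 and -0.65 and did not pass. Dendritic cell markers summed to 649.5 to 781 and 630 to 759 TPM, with 3 of 10 higher and 4 lower. Their sums were close while single markers moved in both directions. Bst2 and Dpp4, the most abundant over all libraries, fell from 261 to 136 TPM and from 195 to 52.6 TPM. The 3 that rose were Cd209a, from 3.597 to 152 TPM, Flt3, from 14.4 to 88.1 TPM, and Wdfy4, from 62.01 to 157 TPM, these 3 being named after their values were seen. Hepatocyte markers, led by Alb and Serpina1c, were lower for 7 of 10 and higher for 0, with sums of 591 to 1430 and 197 to 812 TPM. T and NK cell markers, led by Nkg7 and Cd3g, had 0 of 7 higher and 3 lower, at 84.7 to 108 and 36.6 to 94.1 TPM. Neutrophil markers, led by Csf3r and Cxcr2, had 1 of 3 higher and 1 lower, at 25.5 to 33.7 and 39.0 to 52.5 TPM, and Ly6g was listed at 0 in all 8 libraries. Stellate cell markers, led by Col3a1 and Col1a1, had 2 of 8 higher and 2 lower, at 42.5 to 95.7 and 105 to 112 TPM. The part of any of these cell types in the differences of the 9 genes was not tested.

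**Figure D5:**
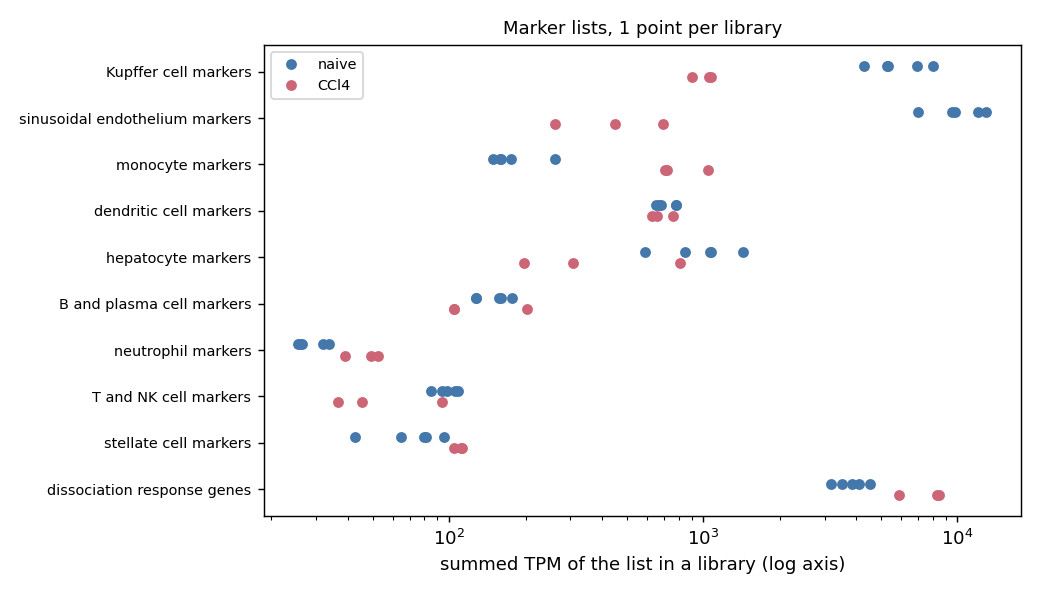
Summed TPM of each marker list on a log axis, with 1 point per library colored by group. The Kupffer cell and endothelial sums of the CCl4 libraries lie below every naive library. The monocyte, neutrophil, stellate cell and dissociation sums lie above. The sums of B and plasma cells, dendritic cells, hepatocytes, and T and NK cells overlap.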

How the data were processed

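Deposited values were TPM for single RefSeq transcripts, per the file headers, made by the authors with kallisto 0.42.4 and GRCm38, per the submitters' processing notes. The strand setting is not given in the sources used here, nor is any pooling of replicates. Transcript values were summed per gene with RefSeq's GRCm38.p6 gene table, ignoring transcript versions: 86722 of 107384 transcripts matched, and the others held 6.06% to 7.58% of the TPM. Of 270 list entries 268 matched. Protein-coding genes held 45.5% to 56.0% of the TPM, much of the rest being the small RNA genes for 7SL and 7SK.

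Differences were tested with limma 3.58.1 (R 4.3.3) on log2(TPM + 1), with intensity trend, for genes that reached 1 TPM in 3 or more libraries, adjusted by Benjamini-Hochberg over all tested genes at 0.05. Since a fold change on the log2(TPM + 1) scale understates low genes, ratios of mean TPM are given beside it. The Xbp1 share was compared by an exact permutation test. The fit was tested on simulated data in which changes were placed only in genes above about 10 TPM. That test does not cover genes as low as Asns, Trib3, Chac1 and Psat1. Alternatives changed the filter, pseudocount, scaling, transcripts used, trend, and libraries. Named genes are the 9 members, in each pathway list up to 4 others with the lowest adjusted p at a mean of at least 10 TPM, the nearest profiles, and the 2 most abundant markers per list; others named were chosen after their values were seen, and a few genes under the rule are not reported here. The 9 genes and the lists were chosen with earlier results of these data known. Promoter sequences are from RefSeq (GRCm38.p6), and all 9 genes matched. The Xbp1 exon came from GENCODE M21. No batch is named in the labels.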

Additional observations from a re-analysis of the deposited data

How the results depend on the processing

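Psat1 kept direction and call in every alternative that tested it, and Atf4 was called in none. Of 201 alternative values of the 9 genes, 172 kept their direction and side of the threshold, 24 lost a call, 3 gained one and 2 turned sign. Both of the last were of Ddit3, at -0.10 (SE 0.565) with curated transcripts only and -0.10 (SE 0.561) with version-matched transcripts only. The number of the 9 genes called higher was 1 without the filter, after rescaling to protein-coding genes and with the replicate block, and 1 to 3 with 1 library left out. The number called lower was 0 at the filter of 5 TPM, where Asns, Trib3 and Chac1 were not tested, and 1 to 4 with 1 library left out. Genes called higher numbered 4011 after quantile normalization and 1592 with curated transcripts only. Pathway genes called higher numbered 29 after median-of-ratios scaling and 34 after quantile normalization, and those called lower 11 to 20 with 1 library left out. Where not stated, the cause was not tested. The numbers 1 and 3 occur in both groups, and the labels do not say whether a shared number means a shared preparation. The deviations of these libraries from their group means correlated at 0.0772 and -0.0414. Over all pairs of a CCl4 and a naive library the values ran from -0.122 to 0.159. With so few libraries these values cannot decide whether libraries of the same number were related. The replicate block adds a term for each replicate number. Only the libraries numbered 1 and 3 in both groups then set the group difference, and the other libraries add nothing to it. Calls lost with the block therefore cannot be read as an effect of pairing. With the replicate block 1874 genes were higher and 3438 lower. Of the 9 genes 1 was higher and 3 lower, Hspa5 (adjusted p = 0.0530) and Herpud1 (0.141) losing their calls. Calls were also lost there for Ppp1r15a (log2 difference 0.38, adjusted p = 0.360), Sec11c (0.0839), Sec63 (0.127), Nars (0.322), Aars (0.240), Hspd1 (0.0672), Map3k20 (0.458) and Zfand2a (0.304). Of 986 values of the other 43 genes under the naming rule, 899 kept direction and side, 70 lost a call and 17 gained one. TPM keep no depth, so the precision of low values such as those of Chac1 is unknown.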
